A study of Mus musculus with 35 samples.

Results

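The SOX transcription factor family was followed while GATA6 drove mouse embryonic stem (ES) cells towards primitive endoderm (PrE), the extraembryonic lineage that lines the blastocyst cavity. The 10 members described here are Sox2, Sox3, Sox4, Sox7, Sox11, Sox13, Sox15, Sox17, Sox18 and Sox21, chosen by gene symbol among the 44853 genes of the induction series. Of these 10 genes, 6 (Sox2, Sox4, Sox7, Sox13, Sox15 and Sox17) are also among the 6275 genes given for the siRNA series. That set was labelled GATA6-responsive by the authors. The induction series holds KH2 ES cells of C57BL/6 x 129/Sv genotype with a Gata6 cassette that responds to doxycycline (Dox), either untreated (0 h) or after 16, 24, 48, 72, 96 and 168 h in 1 µg/mL Dox, with 3 libraries each. All of these groups carry the cassette, were kept in serum with LIF on inactivated fibroblast feeders, and had most feeders removed by adsorption before lysis. XEN cells, an extraembryonic endoderm stem cell type, were represented by the untreated wild type line X10 of CD1 genotype, grown without LIF (2 libraries), so that cell state, strain, line and LIF cannot be told apart in any comparison with XEN. In the siRNA series the Gata6-inducible cells received control siRNA (siCTL) or Oct4 siRNA (siOct4) by nucleofection and stayed in Dox for 48 h, with 6 libraries each. The siRNA cells came from a single transgenic clone, and which clone gave each time point of the induction series is not given in the sources used here. Values are in TPM, a transcript level scaled for transcript length and library total, so the sequencing depth behind each value is unknown and no counting interval can be given. In these bulk libraries fewer cells of a type and less RNA per cell cannot be told apart.

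SOX proteins bind DNA through an HMG box and usually act with a partner factor. SOX2 pairs with OCT4 (the product of Pou5f1) on adjacent sites in pluripotent cells, and its close SOXB1 relative SOX3 can stand in for it. SOX17 and SOX7 belong with SOX18 to the SOXF subgroup, which is known for roles in endoderm and in blood vessel endothelium, and SOX17 can also pair with OCT4, on a more tightly spaced site. The remaining members cover other branches of the family: SOX21 (SOXB2) is a repressor in neural progenitors, SOX4 and SOX11 (SOXC) are activators in many embryonic progenitors, SOX13 (SOXD) lacks an activation domain of its own, and SOX15 (SOXG) is an ES cell factor whose HMG box resembles that of SOX2.

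The members are scattered over the genome. In the mm10 annotation (GENCODE) Sox2 spans bases 34650405 to 34652461 of chromosome 3, and Sox17 spans 4490931 to 4497354 of chromosome 1. Sox13 lies on the same chromosome at 133382303 to 133424377. Sox7 occupies 63943673 to 63950732 and Sox21 118233232 to 118237030 of chromosome 14. Sox15 is found on chromosome 11 (69655314 to 69656727), Sox11 on chromosome 12 (27334264 to 27342574), Sox4 on chromosome 13 (28948919 to 28953713), Sox18 on chromosome 2 (181669836 to 181671640) and Sox3 on chromosome X (60891366 to 60893430). Sox2, Sox3, Sox4, Sox11 and Sox21 have a principal transcript of 1 exon, whereas those of Sox7, Sox15 and Sox18 have 2. Sox2 lies entirely inside Sox2ot, a non-coding gene of the same strand, so the split of reads between them is uncertain. Sox2ot itself was at 1.74 ± 0.112 TPM at 0 h against 323.0 ± 24.2 TPM for Sox2 (mean ± SD, n = 3 each).

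RefSeq promoter windows (GRCm38.p6) were at hand for 6 members, Sox2, Sox4, Sox11, Sox13, Sox15 and Sox21. The 250 bases upstream of the start were searched on both strands for GATA sites (AGATAA and the variants TGATAA as well as AGATAG along with TGATAG), SOX sites (ATTGTT and the variant CTTTGT) and an octamer-like site (ATGCAAA). Matches were found in the windows of Sox2 and Sox11, and these are shown because they hold letters of such sites. The capitals mark the matches. In Sox2 they are a SOX match on the minus strand that begins 206 bases before the start and the octamer-like match that begins 99 bases before it. In Sox11 they are 2 GATA matches, which begin 84 and 20 bases before the start.
Sox2, chr3:34649745-34649994, plus strand: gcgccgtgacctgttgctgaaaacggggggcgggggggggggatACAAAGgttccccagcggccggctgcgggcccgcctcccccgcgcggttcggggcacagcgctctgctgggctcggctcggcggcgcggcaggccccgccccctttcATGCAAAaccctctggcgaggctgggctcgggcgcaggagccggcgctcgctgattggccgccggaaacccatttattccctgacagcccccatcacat
Sox11, chr12:27342719-27342968, minus strand: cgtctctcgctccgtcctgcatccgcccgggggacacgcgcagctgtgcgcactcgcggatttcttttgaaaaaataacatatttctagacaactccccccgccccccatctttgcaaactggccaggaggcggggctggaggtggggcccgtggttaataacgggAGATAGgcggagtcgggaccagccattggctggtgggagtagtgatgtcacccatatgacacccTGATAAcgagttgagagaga
Over all 32851 promoter windows of this length, 26.5% held a GATA match, 24% a SOX match and 4.12% the octamer-like match. The windows of Sox4, Sox13, Sox15 and Sox21 held none of these letters. Of these, Sox13 and Sox15 were called lower from 48 to 96 h, as were Sox2 and Sox11. The RefSeq starts of Sox2 and Sox11 lie outside their GENCODE spans. The matches describe the sequence and were not tested for binding. The Sox2 window had 72.0% G and C with 27 CpG, the Sox11 window 58.0% with 17, against medians of 52.4% and 6 over all windows.

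The libraries carried the identities on their labels. The 7 ES markers examined, among them Pou5f1 and Nanog, summed to between 8720 and 9100 TPM at 0 h and to between 17.3 and 21.1 TPM in XEN, whereas 7 PrE markers summed to between 30.0 and 42.0 TPM at 0 h and to between 4780 and 4810 TPM in XEN. Gata6, which the table does not separate from its transgene, averaged 0.264 TPM before Dox, 134 TPM after 16 h and 344 TPM after 168 h. Replicate 3 stood apart from replicates 1 and 2 at 72 h, where the SD of the log2 difference between libraries over genes was 0.56 and 0.58 with replicate 3 and 0.33 without it. Results that turned on this library are given with and without it.

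The central observation was an exchange of Sox2 for Sox17. Sox2 was at 341.4, 332.2 and 295.6 TPM in the 0 h libraries and at 145.7, 161.7 and 125.7 TPM at 16 h. It went on to 98.1, 97.4 and 135.1 TPM at 24 h, to 46.9, 41.9 and 54.2 TPM at 48 h and to 24.1, 25.8 and 11.7 TPM at 72 h. At 96 h it stood at 8.42, 10.1 and 9.25 TPM and at 168 h at 3.10, 3.12 and 3.31 TPM. Every Dox library was below every 0 h library, and the mean at 168 h was 0.983% of that at 0 h. In XEN, Sox2 was listed at 0 in one library and at 0.0607 TPM in the other. On the log2(TPM + 1) scale, on which changes of low genes are understated, Sox2 fell by 1.16 at 16 h (SE 0.20, adjusted p = 0.000431, limma with Benjamini-Hochberg (BH) adjustment over all genes tested, here and below). The fall reached 2.74 at 48 h (SE 0.20, limma BH-adjusted p = 1.15e-09) and 6.28 at 168 h (SE 0.20, limma BH-adjusted p = 1.41e-15).

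Sox17, a regulator of PrE and definitive endoderm, moved the other way and was up at the first time sampled. It was at 0.102, 0.132 and 0.173 TPM in the 0 h libraries and at 68.4, 60.9 and 74.2 TPM at 16 h. Further Dox brought it to 110.7, 105.4 and 60.6 TPM at 24 h and to 135.4, 166.6 and 130.7 TPM at 48 h. The 72 h libraries held 242.9, 249.7 and 172.1 TPM and the 96 h libraries 223.7, 233.5 and 172.7 TPM. Levels of 295.1, 297.7 and 256.6 TPM were reached at 168 h, next to 297.4 and 299.5 TPM in XEN. No Dox library overlapped the 0 h range, whereas the 168 h and XEN libraries overlapped. The log2 change of Sox17 was 5.92 at 16 h (SE 0.18, limma BH-adjusted p = 3.73e-14), 6.99 at 48 h (SE 0.18, limma BH-adjusted p = 7.26e-16) and 7.96 at 168 h (SE 0.18, limma BH-adjusted p = 1.96e-17). Markers of definitive endoderm and mesoderm, other places where Sox17 is used, were read beside it. The 8 genes listed summed to between 2.48 and 3.0 TPM at 0 h, to at most 12.1 TPM at 96 h and to between 4.21 and 4.60 TPM at 168 h. Eomes held much of this sum, with a mean of 1.66 TPM before Dox that had become 8.25 TPM by 48 h and 8.87 TPM by 96 h. Gsc averaged 0.105 TPM at 0 h and 1.11 TPM at 16 h, and Mixl1 did not average above 0.480 TPM in any group. The part of such cells in the Sox17 level was not tested.

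**Figure D1:**
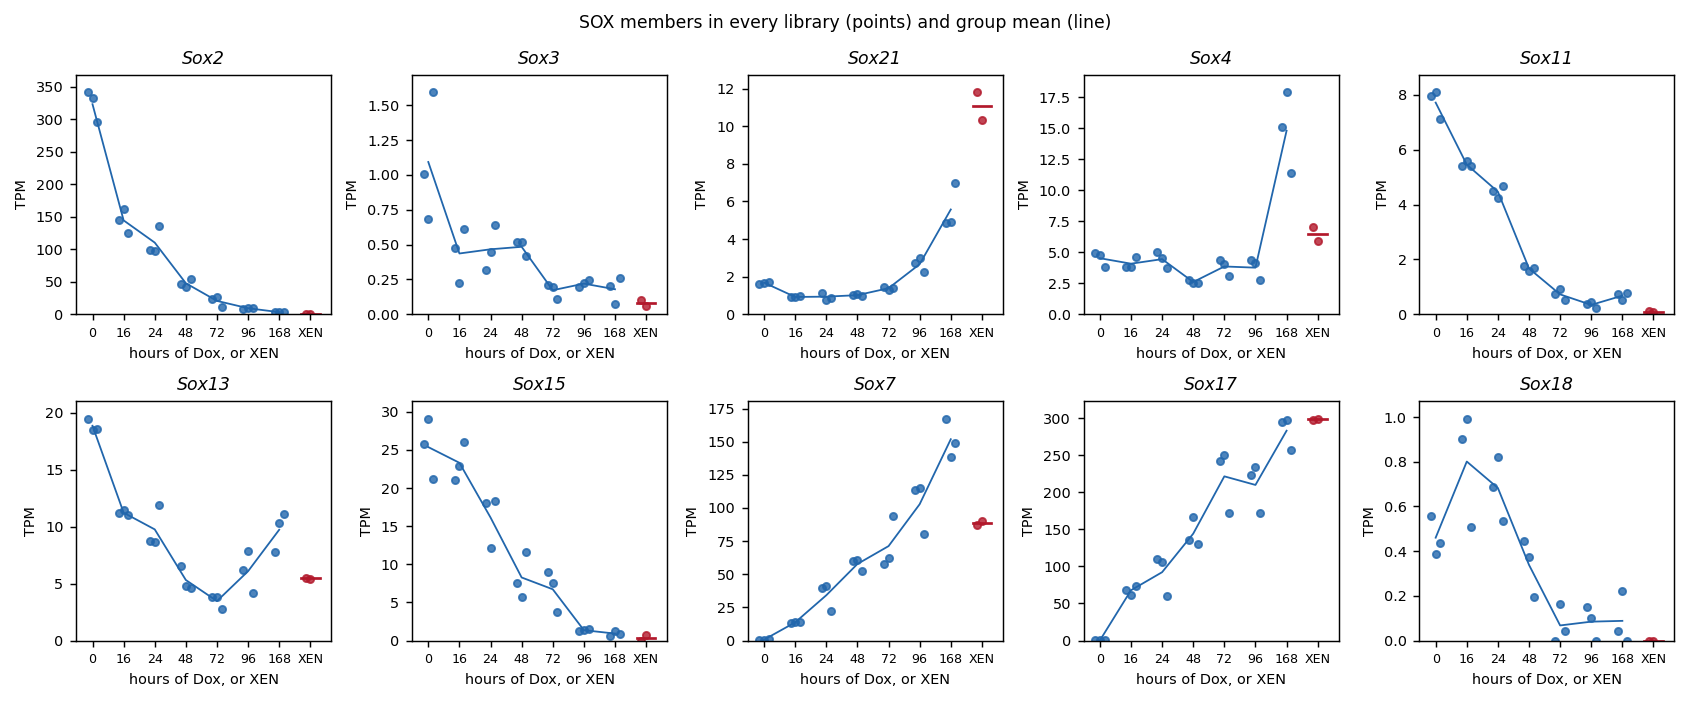
Level in TPM of the 10 SOX members in each library (points) with the mean of each Dox time (line) and of XEN (bar); time points are evenly spaced, not to scale, and each panel has its own vertical axis from 0. Sox2, Sox11 and Sox15 go down, Sox7 and Sox17 go up, Sox13 reaches its lowest mean of 3.46 TPM at 72 h and comes back in part, and Sox4 and Sox21 are highest late or in XEN.

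Both transcripts were abundant together between 16 and 48 h. The log ratio of Sox17 to Sox2, taken in each library as the difference of their log2(TPM + 1) values, was -8.15 ± 0.15 at 0 h and -1.08 ± 0.32 at 16 h (mean ± SD, n = 3 each). At 24 h it averaged -0.29 ± 0.74 (SD, n = 3), and its libraries fell on both sides of 0, from -1.14 in replicate 3 to 0.17 in replicate 1. Without replicate 3 the 24 h mean was 0.14, so whether Sox17 had passed Sox2 by then rests on that library. From 48 h on Sox17 was ahead in all libraries, with a ratio of 1.58 ± 0.36 at 48 h and 3.43 ± 0.30 at 72 h, growing to 4.35 ± 0.25 by 96 h and to 6.09 ± 0.16 by 168 h (mean ± SD, n = 3 each). XEN cells had 8.18 ± 0.05 (SD, n = 2). As Sox2 was at or near 0 in XEN and Sox17 at 0 h, the pseudocount sets these ends of the scale. With 0.1 in place of 1 the mean was 11.2 in XEN and -10.43 at 0 h. The ranges of consecutive groups did not overlap except between 16 and 24 h.

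**Figure D2:**
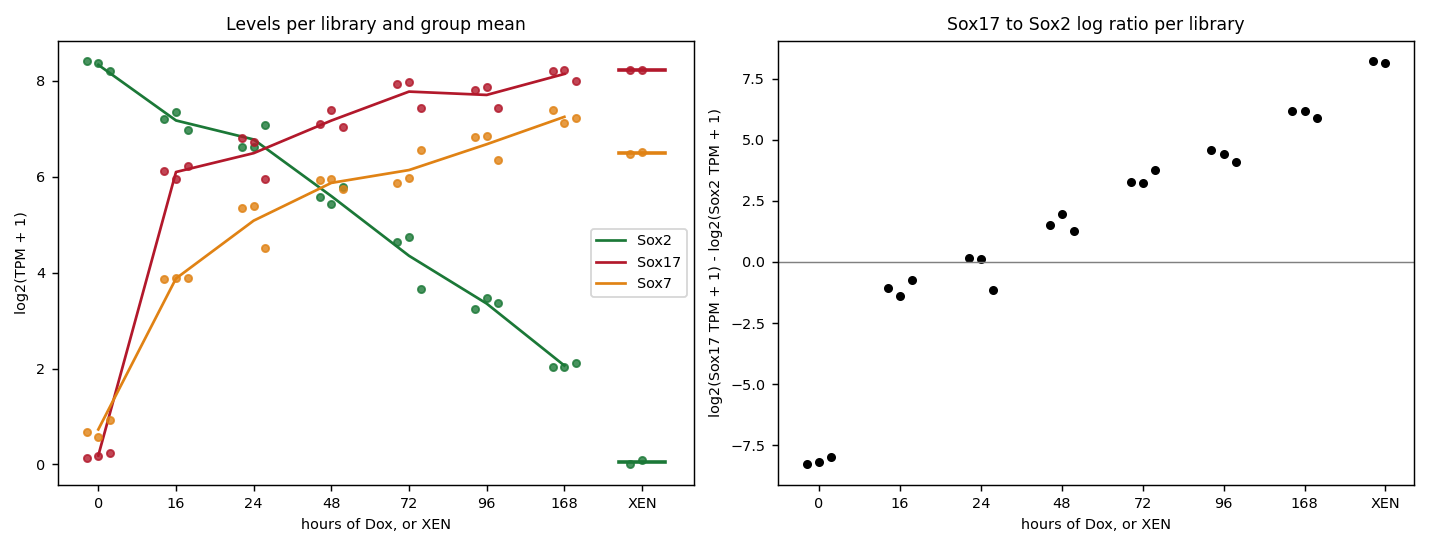
Left, log2(TPM + 1) of Sox2, Sox17 and Sox7 per library with the mean of each Dox time (line) and of XEN (bar); right, the Sox17 to Sox2 log ratio per library, with 0 marking equal levels. Time points are evenly spaced, not to scale. The ratio climbs from a mean of -8.15 at 0 h to 6.09 at 168 h and crosses 0 between the 16 h and 48 h libraries.

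The steps between consecutive times were tested as well. The Sox2 mean was lower after each of the 5 steps between consecutive Dox times, and 3 of them passed the test. It fell by 1.18 from 24 to 48 h (SE 0.20, limma BH-adjusted p = 0.000139), by 1.24 from 48 to 72 h (SE 0.20, limma BH-adjusted p = 0.000167) and by 1.29 from 96 to 168 h (SE 0.20, limma BH-adjusted p = 4.3e-05). The 48 to 72 h step depended on replicate 3 of the 72 h group. Without that library it was -0.90, under the fold change minimum of 1, and 0 members were called, whereas the 72 to 96 h step then passed at -1.34. The latter also passed, at -1.06, without replicate 2 of the 96 h group. With all libraries the 72 to 96 h difference was -0.998 (SE 0.20, limma BH-adjusted p = 0.00383), just short of the minimum. Sox17 passed the test in none of these steps. Its differences were 0.39 from 16 to 24 h, 0.68 from 24 to 48 h, 0.60 from 48 to 72 h, -0.07 from 72 to 96 h and 0.44 from 96 to 168 h, with SE of 0.18 each. Those of 24 to 48 h and 48 to 72 h had limma BH-adjusted p-values of 0.00669 and 0.0182 and missed only the fold change minimum. In the order of Sox17 levels, the libraries of 16 and 24 h overlapped, as did those of 72 and 96 h and those of 168 h and XEN. The 96 and 168 h libraries did not overlap, although their difference missed the test (limma BH-adjusted p = 0.0612).

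Sox7, the SOXF gene most like Sox17 in this series, started somewhat higher and reached lower levels. Its level was 0.599, 0.487 and 0.913 TPM at 0 h, and 13.5, 13.8 and 13.8 TPM at 16 h. At 24 h it was 39.6, 40.9 and 22.0 TPM and at 48 h 59.8, 60.8 and 52.6 TPM. The later groups ran from 57.7 to 93.8 TPM at 72 h, from 80.5 to 114.8 TPM at 96 h and from 138.8 to 167.4 TPM at 168 h. All Dox libraries were above all 0 h libraries, and the XEN libraries, at 87.45 and 90.51 TPM, lay below the whole 168 h range. The log2 change was 3.15 at 16 h (SE 0.20, limma BH-adjusted p = 1.1e-09) and 6.52 at 168 h (SE 0.20, limma BH-adjusted p = 8.52e-16). From 16 to 24 h Sox7 rose by a further 1.21 (SE 0.20, limma BH-adjusted p = 0.00219), the only member called in that step, in which 0.352% of all genes tested were called. XEN differed from 168 h by -0.76 (SE 0.22, limma BH-adjusted p = 0.00828), which missed the fold change minimum.

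Sox18, the SOXF gene of vessel and lymphatic endothelium, stayed near the floor. It did not reach a mean of 1 TPM in any group and was therefore not tested. Its libraries ran from 0.386 to 0.559 TPM at 0 h, from 0.507 to 0.993 TPM at 16 h and from 0 to 0.223 TPM at 168 h, and it was listed at 0 in both XEN libraries. The 16 h libraries overlapped those of 0 h. SOXF genes mark endothelium as well as endoderm, so 8 endothelial markers were read beside them. Their sum was between 26.6 and 30.1 TPM at 0 h, mostly Pecam1 at a mean of 24.8 TPM, and between 26.5 and 41.5 TPM at 168 h. Emcn did not average above 0.0338 TPM, nor Tie1 and Erg above 0.297 TPM, in any group. Pecam1 was down to 0.481 TPM at 168 h while other markers were up. Flt1 averaged 0.318 TPM before Dox, 10.5 TPM after 168 h and 19.0 TPM in XEN, and Tek 2.63, 11 and 31.4 TPM in the same groups. Kdr averaged 0.349, 6.92 and 1.25 TPM and Cdh5 0.00677, 2.60 and 34.4 TPM. The list sum was highest in XEN, at 83.9 to 88.8 TPM, and the part of these markers in the SOXF levels was not tested.

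The other SOXB genes were minor and split in direction. Sox3 was at 1.00, 0.680 and 1.59 TPM at 0 h and averaged 0.436 ± 0.196 TPM at 16 h and 0.179 ± 0.0985 TPM at 168 h (mean ± SD, n = 3 each). It passed the filter on low values only through its 0 h mean of 1.09 TPM, the group where it is highest, so its decline is given as values without a test. Sox21 dipped before it climbed. It was at 1.64, 1.67 and 1.74 TPM at 0 h, between 0.902 and 0.954 TPM at 16 h, and at 4.84, 4.90 and 6.98 TPM at 168 h. Both XEN libraries were higher still, at 11.8 and 10.4 TPM. The 16 h libraries were all below and the 168 h libraries all above those of 0 h. The early difference of -0.48 (SE 0.12, limma BH-adjusted p = 0.0111) missed the fold change minimum, whereas the late rise of 1.28 at 168 h was called (SE 0.12, limma BH-adjusted p = 1.32e-08), as was that of 2.17 in XEN (SE 0.14, limma BH-adjusted p = 3.61e-11). Sox2, Sox3 and Sox21 are neural genes too, and 8 neural markers summed to between 24.0 and 24.6 TPM at 0 h, between 8.59 and 9.93 TPM at 168 h and between 11.2 and 11.8 TPM in XEN. Olig2 averaged 12.4 TPM at 0 h and 0.152 TPM at 168 h, and Nes 3.61 TPM at 0 h and 8.95 TPM in XEN, its highest mean. Neurog2 did not average above 0.0609 TPM in any group, and the part of neural cells in these Sox levels was not tested.

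Sox15 and Sox11 also went down, and both passed the test from 48 h on. Sox15 was at 25.8, 29.1 and 21.2 TPM at 0 h and still between 21.0 and 26.0 TPM at 16 h, when the groups overlapped. It had come down to between 5.67 and 11.6 TPM at 48 h, between 3.72 and 8.94 TPM at 72 h and between 1.21 and 1.47 TPM at 96 h, and was at 0.580, 1.28 and 0.882 TPM at 168 h. It fell by 1.55 at 48 h (SE 0.27, limma BH-adjusted p = 6.81e-05) and fell by 3.79 at 168 h (SE 0.27, limma BH-adjusted p = 1.55e-10). The steepest step was that from 72 to 96 h, at -1.64 (SE 0.27, limma BH-adjusted p = 0.000917). It missed the threshold when only these 2 groups were fitted (limma BH-adjusted p = 0.0737). Sox11 was at 7.95, 8.09 and 7.10 TPM at 0 h, between 1.56 and 1.76 TPM at 48 h and between 0.508 and 0.791 TPM at 168 h, with no overlap with 0 h at any time. It fell by 1.71 at 48 h (SE 0.105, limma BH-adjusted p = 1.19e-10) and by 2.38 at 168 h (SE 0.105, limma BH-adjusted p = 1.61e-13). Its lowest Dox mean was 0.341 TPM at 96 h, and XEN averaged 0.0961 TPM.

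Sox13 described a trough. Its 0 h libraries held 19.5, 18.5 and 18.6 TPM, and the means of the following groups were 11.2, 9.75 and 5.31 TPM at 16, 24 and 48 h. The lowest level, of 3.78, 3.85 and 2.76 TPM, was that of 72 h, after which it came back to 7.75, 10.3 and 11.1 TPM at 168 h. The 168 h libraries lay above all 72 h libraries and below all 0 h libraries. Sox13 had fallen by 2.16 at 72 h (SE 0.175, limma BH-adjusted p = 2.24e-09). At 168 h the difference from 0 h was -0.90 (SE 0.175, limma BH-adjusted p = 0.000119), under the fold change minimum, which it passed at -1.07 after rescaling of the libraries to a common median. The differences on the way back, of 0.64 from 72 to 96 h and 0.62 from 96 to 168 h, had limma BH-adjusted p-values of 0.0201 and 0.00784 and also missed the minimum.

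Sox4 was called higher at 168 h and at no earlier time. It was at 4.96, 4.76 and 3.83 TPM at 0 h, between 2.52 and 2.75 TPM at 48 h and between 2.78 and 4.36 TPM at 96 h, and then at 15.1, 17.9 and 11.4 TPM at 168 h. All 168 h libraries were above all earlier ones. The rise against 0 h was 1.501 (SE 0.16, limma BH-adjusted p = 8.94e-08), and it came in a single step, of 1.73 from 96 to 168 h (SE 0.16, limma BH-adjusted p = 1.51e-07). In the 6.45 ± 0.82 TPM of XEN (SD, n = 2) Sox4 was 1.07 lower than at 168 h (SE 0.18, limma BH-adjusted p = 8.97e-05). Fibroblasts express SOXC genes, and feeders were only partly removed. The 10 fibroblast markers summed to between 38.2 and 112 TPM at 0 h, between 81.1 and 146 TPM at 16 h and between 63.3 and 152 TPM at 72 h. Their sums were between 88.4 and 123 TPM at 96 h and between 141 and 290 TPM at 168 h. At 168 h Dcn ran from 0.865 to 7.64 TPM and Lum from 1.83 to 8.98 TPM, and neither averaged above 0.781 TPM in another group. The part of feeders in the Sox4 level was not tested.

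**Figure D3:**
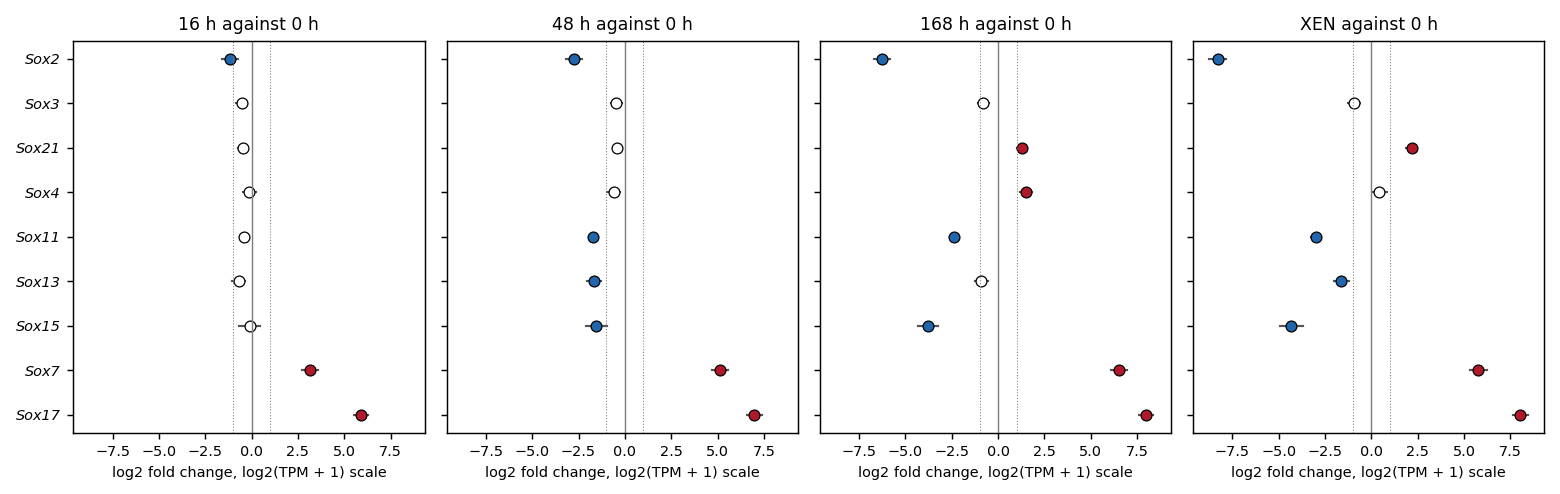
Log2 fold change of the 9 SOX members tested against 0 h (points, with 95% confidence intervals as lines), on the log2(TPM + 1) scale; filled points passed the test and dotted lines mark the fold change minimum of 1. Sox2, Sox7 and Sox17 are filled in all panels, whereas Sox4 and Sox21 are filled on the right of 0 only at 168 h or, for Sox21, also in XEN. Sox3 is drawn too, but it entered only through its 0 h mean, so its points and intervals are not read as a test.

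Read as a family, 9 of the 10 members could be tested, Sox18 being left out for its low level and Sox3 entering only through 0 h. At 16 h, 2 were higher (Sox7 and Sox17), where 1.97% of all genes tested were, and 1 was lower (Sox2), where 0.804% of genes were. The same 3 genes were called at 24 h, against 3.24% of genes higher and 2.44% lower. At 48 h Sox11, Sox13 and Sox15 joined Sox2, giving 4 lower and 2 higher (all genes, 7.26% lower and 9.14% higher). These 6 calls stood at 72 h, where 11.5% of genes were lower and 14.7% higher, and at 96 h, where 14.1% were lower and 15.4% higher. At 168 h, 4 were higher (Sox4, Sox7, Sox17 and Sox21) and 3 lower (Sox2, Sox11 and Sox15), beside 22.6% and 16.5% of all genes. The median change of the tested members, Sox3 included, was -0.43 at 16 h and -0.81 at 168 h, next to 0.02 and 0.09 over all genes. The 168 h median is the value of Sox3 itself, which entered only through 0 h, so no fall of the family is read from it. Rescaling to a common median moved the median of all genes at 168 h from 0.09 to -0.05, and kept the direction of every member at that time.

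Between consecutive times the calls were few. From 24 to 48 h, Sox2 and Sox11 were called, both lower, where 5.56% of all genes were called in either direction. Sox2 was the member called from 48 to 72 h, beside 3.33% of genes, and Sox15 the one from 72 to 96 h, beside 1.71%. From 96 to 168 h, Sox2 was lower and Sox4 higher, beside 7.67% of genes.

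XEN cells held Sox17 with next to no Sox2. Against 0 h, 3 members were higher (Sox7, Sox17 and Sox21) and 4 lower (Sox2, Sox11, Sox13 and Sox15), beside 18.9% and 18.7% of all genes. Against 168 h, 2 were lower, Sox2 by 2.02 (SE 0.22, limma BH-adjusted p = 5.82e-07) and Sox4 by 1.07, and 0 were higher, beside 9.17% of genes lower and 4.73% higher. The Sox4 call was lost after rescaling, at -0.91, and when replicate 2 of the 168 h group or replicate 2 of XEN was left out. Sox17 did not pass, with a difference of 0.08 (SE 0.20, 95% interval -0.35 to 0.51, limma BH-adjusted p = 0.785). Sox21 was 0.89 higher (SE 0.14, limma BH-adjusted p = 2.66e-05), short of the fold change minimum, which it passed at 1.03 after rescaling.

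Summing TPM by subgroup gave the same picture over all 20 SOX genes of the table. The SOXB1 sum (Sox1, Sox2 and Sox3) was 325.1 ± 24.0 TPM at 0 h and 3.38 ± 0.192 TPM at 168 h, and the SOXF sum (Sox7, Sox17 and Sox18) was 1.26 ± 0.259 TPM at 0 h and 435.0 ± 28.4 TPM at 168 h (mean ± SD, n = 3 each). XEN had 0.111 ± 0.0143 TPM of SOXB1 and 387.4 ± 3.68 TPM of SOXF (SD, n = 2). The total over all SOX genes was 404.6 ± 30.9 TPM before Dox, 279.3 ± 13.6 TPM after 48 h and 476.2 ± 25.5 TPM after 168 h (mean ± SD, n = 3 each). SOXB1 therefore supplied 80.4 ± 0.588% of SOX transcripts at 0 h and SOXF 91.3 ± 1.14% at 168 h (mean ± SD, n = 3 each). At 24 h the shares were 38.3 ± 9.27% and 43.2 ± 11.5% (mean ± SD, n = 3 each), which do not differ beyond their spread.

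**Figure D4:**
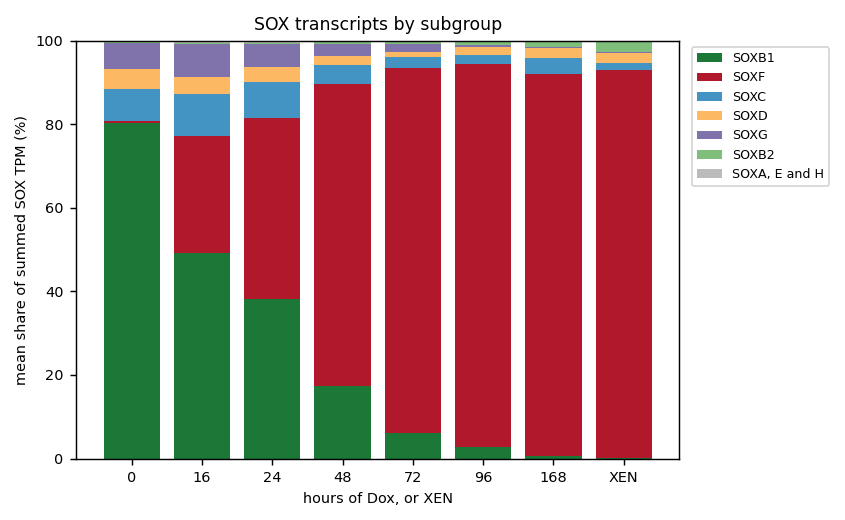
Mean share of the summed TPM of all SOX genes held by each subgroup at each Dox time and in XEN (stacked bars to 100%; 3 libraries per time and 2 for XEN). SOXB1 goes from 80.4% at 0 h to 0.713% at 168 h and SOXF from 0.316% to 91.3%.

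Of the 10 SOX genes outside the selection, 4 could be tested, Sox1, Sox5, Sox6 and Sox12, of which Sox1 passed the filter on low values only through 0 h. Sox12, a SOXC gene, was the one called during induction: it fell from 18.9 ± 2.78 TPM at 0 h to 8.50 ± 0.832 TPM at 48 h and 3.26 ± 0.457 TPM at 168 h (mean ± SD, n = 3 each), a change of -2.22 at 168 h (SE 0.12, limma BH-adjusted p = 1.71e-12). The SOXC genes thus parted at 168 h, with Sox11 and Sox12 lower and Sox4 higher than at 0 h. The SOXD genes Sox5 and Sox6 averaged 1.64 ± 0.142 and 2.87 ± 0.235 TPM in XEN (SD, n = 2 each) and averaged 0.0406 and 0.193 TPM at 0 h, and as they passed the filter only through the groups where they are high, no test is given. Sox13, of the same subgroup, was 1.62 lower in XEN than at 0 h (SE 0.195, limma BH-adjusted p = 4.36e-07).

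Genes known as partners or targets of OCT4 and SOX2 were read beside Sox2. Of the 12 listed, 3 were lower at 16 h (Fgf4, Nanog and Zfp42), 5 at 48 h, 8 at 72 h and 10 at 168 h, and 0 were higher at any of these times. Over all genes 0.804%, 7.26%, 11.5% and 16.5% were lower. The median change of the list was -0.22 at 16 h and -4.22 at 168 h, next to 0.02 and 0.09 over all genes. The 3 largest changes at 168 h were those of Tdgf1 (-7.43, SE 0.31), Esrrb (-6.71, SE 0.29) and Nanog (-6.70, SE 0.22), with limma BH-adjusted p-values of 7.29e-14, 1.1e-13 and 1.7e-15. Pou5f1, the partner itself, was called later than Sox2. From 1654 ± 155 TPM before Dox it had come to 1352 ± 42.2 TPM by 16 h and 1169 ± 41.1 TPM by 48 h (mean ± SD, n = 3 each), when Sox2 was down to 44.7% and 14.8% of its 0 h mean. Pou5f1 was first called at 96 h and fell by 4.87 at 168 h (SE 0.25, limma BH-adjusted p = 1.84e-12). The OCT4 partner transcript was thus still at 70.7% of its 0 h mean at 48 h, when Sox17 was at 144.2 ± 19.5 TPM (SD, n = 3). Fbxo15 and Sall4 were the listed genes not called at 168 h, at 0.33 and 0.34 (limma BH-adjusted p = 0.0114 and 0.00392).

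Genes of the endoderm programme linked to SOX17 and SOX7, 15 in all, were read beside Sox17. At 16 h 13 were higher, Hnf4a and Nid1 being the exceptions, at 24 h 14, and from 48 to 168 h all 15, with 0 lower. Over all genes 1.97% were higher at 16 h, 3.24% at 24 h and from 9.14% to 22.6% later. The median change of the list was 2.45 at 16 h and 7.02 at 168 h, next to 0.02 and 0.09 over all genes. The 3 largest changes at 168 h were in Col4a1 (9.30, SE 0.14), Col4a2 (9.19, SE 0.17) and Cubn (8.14, SE 0.27), with limma BH-adjusted p-values of 4.85e-20, 1.44e-18 and 2.61e-15. The first 2 encode type IV collagen chains of the basement membrane, and Cubn an endocytic receptor of visceral endoderm. From 96 to 168 h, 6 of the 15 rose and 2 (Amn and Hnf4a) fell, beside 7.67% of all genes called in either direction. In XEN against 0 h, 14 were higher and 1 (Amn) lower, beside 18.9% and 18.7% of all genes. In XEN against 168 h, 6 of the 15 were lower and 0 higher, beside 9.17% and 4.73% of all genes.

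The genes closest to each member in their pattern over the 8 group means were ranked among 7064 genes that reached 5 TPM in a group and spanned at least 1 log2 unit. These correlations describe means that share their libraries, and carry no test. For Sox17 the leading genes were Gata4 (r = 0.9946), Pdgfra (r = 0.9944) and Gata6 (r = 0.9917), followed by Gm28592 and Flrt3. Gata4 and Gata6 encode PrE transcription factors, and Pdgfra a growth factor receptor of PrE. For Sox2 they were Arhgap39 (r = 0.9974), Rpl39l (r = 0.9973), Itpk1, Chchd10 and Fkbp5. Sox7 was closest to Serpinh1 (r = 0.9971), a collagen chaperone, then to Gdpd5 and Flrt3. Sox11 was closest to Psmd5, Jam2 and Jmjd1c, Sox15 to Syce2, Shfl and Rgs9, and Sox21 to Lmo7, Taf9b and Rbsn, with r of at least 0.9912 for these 9 genes. Likeness was lower for Sox4 (Trpc5os, Tanc1 and Zfp354c, the first at r = 0.9629) and Sox13 (Fez1, Nfic and Igsf9b, the first at r = 0.9613). Sox3 and Sox18 did not reach 5 TPM. Between members, r was 0.97 for Sox2 with Sox15, 0.93 for Sox2 with Sox11, 0.97 for Sox7 with Sox17 and -0.73 for Sox2 with Sox17 (n = 8 group means each).

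The siRNA series asked what lowering Oct4 does at 48 h of Dox. Pou5f1 was lower in all siOct4 than in all siCTL libraries: the lowest, median and highest siCTL levels were 781.8, 895.5 and 1194 TPM, and those of siOct4 281.6, 313.9 and 386.6 TPM, a change of -1.52 (SE 0.14, limma BH-adjusted p = 5.21e-05). Libraries of consecutive numbers resembled each other. Replicates 1 and 2 of siCTL differed with an SD of 0.27 over genes and replicates 5 and 6 with 0.28, against 0.50 to 0.78 for other siCTL pairs, among them replicates 3 and 4 with 0.74. In siOct4 the consecutive pairs differed with 0.29 to 0.42 and the others with 0.54 to 0.71. The 2 arms of the same number deviated together, so values with the replicate number as a block are given where they change a call.

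None of the 6 members was called without the block, where 2.67% of all genes tested were (minimum log2 change 0.5), and 1 (Sox7) had an unadjusted p under 0.05. The genes tested in the siRNA series are those the authors labelled GATA6-responsive. Shares and p adjustment in this series are over that set, which is not a background of all expressed genes. With the block 1 member was called, again Sox7, beside 8.57% of genes. An unadjusted limma p under 0.05 was then found for 4 of the 6 members and for 1524 of all 6264 genes. Sox7 was at 54.05, 50.82, 54.03, 183.8, 61.9 and 54.04 TPM in siCTL replicates 1 to 6 and at 34.02, 23.71, 41.23, 59.33, 43.02 and 37.96 TPM in siOct4. It was lower with siOct4 in all 6 pairs, though the groups overlapped. The mean log2 difference was -0.79 (SE 0.30, limma BH-adjusted p = 0.226), with an adjusted p of 0.0134 under the block. The two-sided exact permutation p was 0.0108 over 924 splits, and the paired exact sign-flip p was 0.0312, the smallest that 6 pairs can give, each unadjusted and from 1 of 6 such tests. Both exact tests, here and below, take the replicates as independent. Replicates 1 and 2, and 5 and 6, resembled each other in both arms, so these p-values may be too small. Leaving out siCTL replicate 4, the library at 183.8 TPM, made the difference -0.50 (limma BH-adjusted p = 0.271). Averaging libraries of consecutive numbers, fitted without the block, left the difference at -0.79 and its limma BH-adjusted p at 0.581. With fewer values per arm this fit called 0 of all 6261 genes, Pou5f1 included, so it cannot decide on the blocked Sox7 call.

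Sox2 was also lower with siOct4 in all 6 pairs, but its level varied far more between pairs than between siRNAs. It was at 6.25, 5.62, 2.87, 3.46, 33.8 and 28.6 TPM in siCTL and at 4.65, 3.28, 2.39, 2.63, 23.3 and 20.8 TPM in siOct4. Replicates 5 and 6 of both arms held several times more Sox2 than the rest. The mean log2 difference was -0.41, with pairs between -0.63 and -0.19, and did not pass (limma BH-adjusted p = 0.844, and 0.124 with the block). Its exact permutation p was 0.569 and its paired exact sign-flip p 0.0312. Sox2 was called in neither fit, and leaving out single libraries moved its difference from -0.75 (without siOct4 replicate 5) to -0.04 (without siCTL replicate 5).

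Sox17 was not shifted in a common direction. Its level was 43.5, 41.9, 42.8, 66.3, 38.9 and 35.6 TPM in siCTL and 28.7, 27.5, 49.3, 60.1, 44.5 and 60.7 TPM in siOct4, lower in 3 pairs and higher in 3. The mean log2 difference was -0.03 (95% interval -0.51 to 0.46, limma BH-adjusted p = 0.97, exact permutation p = 0.905), and rescaling turned it to 0.12. Because Sox2 and Sox17 were measured in the same libraries, their log ratio could be read too, at 2.21 ± 1.59 in siCTL and 2.58 ± 1.26 in siOct4 (SD, n = 6 each). In replicates 1 to 6 the ratio was 2.62, 2.7, 3.5, 3.92, 0.2 and 0.31 in siCTL. The siOct4 libraries of the same numbers had 2.39, 2.74, 3.89, 4.07, 0.9 and 1.5. The ratio was thus lower with siOct4 in replicate 1 and higher in the others. The arms overlapped, the SD includes the gap between replicates 5 and 6 and the rest, and the paired difference was not tested.

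For the other members the 2 arms overlapped, and none was called in either fit. Sox13 ran from 0.655 to 3.17 TPM in siCTL and from 1.51 to 8.46 TPM in siOct4, a difference of 0.54 with 1 of 6 pairs lower (exact permutation p = 0.18). Sox15 ran from 2.35 to 8.70 TPM and from 2.84 to 11.4 TPM, a difference of 0.47 with 2 pairs lower (exact permutation p = 0.277). Sox4 ran from 0.983 to 5.65 TPM and from 1.87 to 7.87 TPM, a difference of 0.32 with 3 pairs lower (exact permutation p = 0.435). The paired exact sign-flip p-values of Sox13, Sox15 and Sox4 were 0.0625, 0.125 and 0.469, unadjusted, where 6 pairs cannot go below 0.0312. Their limma BH-adjusted p-values were 0.541, 0.643 and 0.77, and 0.136, 0.191 and 0.604 with the block. Among the listed OCT4 and SOX2 genes 9 could be tested, including Pou5f1, which the siRNA itself targets. Without the block Pou5f1 was the only one lower, beside 2.67% of all genes called in either direction. With it Esrrb and Zscan10 were lower too, beside 8.57%. Of the 15 endoderm genes, Amn and Cubn were lower without the block, beside 2.67% of all genes called in either direction, and with it 7 were, beside 8.57%. When libraries of consecutive numbers were averaged and fitted without the block, 0 of 6261 genes were called by limma. The calls of Cubn, Amn and Pou5f1 were thus lost too, and 437 genes had an unadjusted p under 0.05. Cubn averaged 353.4 ± 191 TPM with siCTL against 62.97 ± 40.5 TPM with siOct4 (SD, n = 6 each), a change of -2.55 (SE 0.46, limma BH-adjusted p = 0.00641). The 6 fibroblast markers in this table summed to between 31.1 and 217 TPM in siCTL and between 32.9 and 219 TPM in siOct4, and 5 trophoblast markers to between 13.2 and 38.4 TPM and between 20.1 and 104 TPM. Their part in the Sox levels was not tested.

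**Figure D5:**
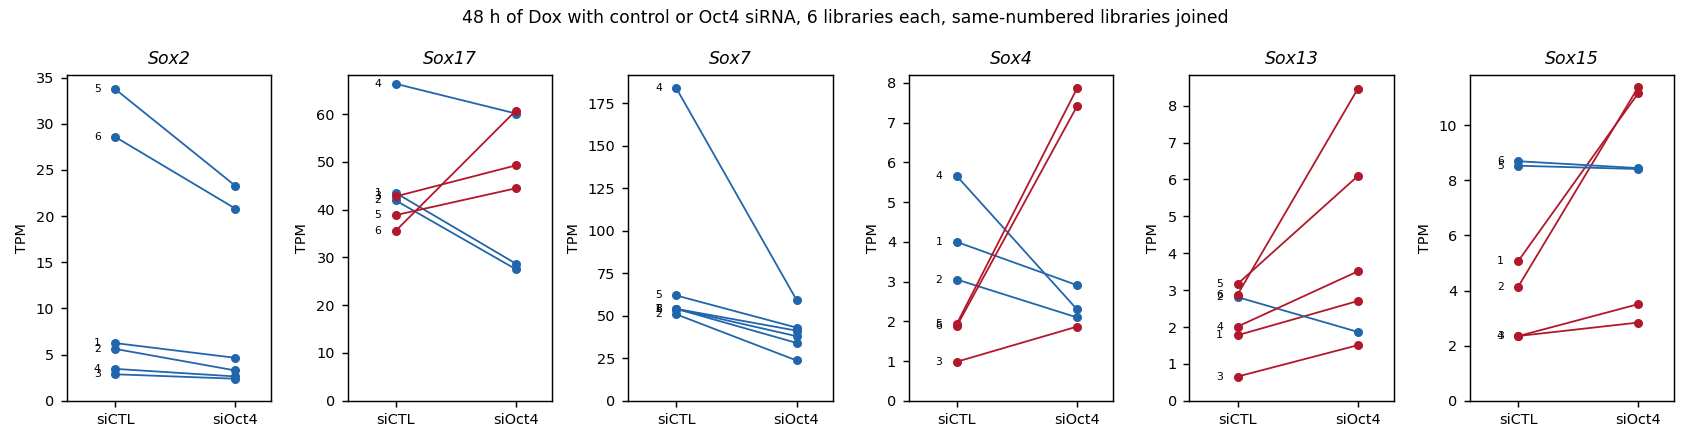
Level in TPM of the 6 SOX members of the siRNA series in each library, with siCTL and siOct4 libraries of the same number joined (blue, lower with siOct4; red, higher) and numbered at the left; each panel has its own vertical axis from 0. Sox2 and Sox7 go down in all 6 pairs, and Sox17 in 3.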

How the data were processed

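Mouse polyA RNA was sequenced from 35 libraries. Per the labels and the study's methods, the authors used STAR for alignment of the stranded read pairs to mm10 and RSEM for quantification, left out outlying libraries and deposited TPM, with tool versions not given in the sources used here. The deposited tables also hold the authors' group means and their own cluster and siOct4 effect calls, which were not used. The siRNA table covers only 6275 genes, which the authors labelled GATA6-responsive.

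From these, log2(TPM + 1) values were tested with limma 3.58.1 (R 4.3.3; trended, robust moderated variances) over genes whose mean reached 1 TPM in some group (15057 genes in the induction table, 6264 in the siRNA table), with all groups of a table in 1 fit, Benjamini-Hochberg adjusted p under 0.05 and a minimum log2 change of 1 (induction) or 0.5 (siRNA) for a call. Of symbols on several rows (60) that with the largest mean entered. Exact permutation tests were two-sided. The fit was tried on simulated data with independent noise in each library. That trial cannot speak to libraries that resemble each other or are paired, as in the siRNA series. Replicate numbers paired the siRNA arms, which the study describes as independent experiments: deviations of the same number correlated with r between 0.24 and 0.71 in all 6 pairs. In the induction table such deviations correlated little (mean r 0.03 over 77 pairs, XEN included, from -0.19 to 0.22). Of these 77 pairs 16 had r over 0.1, and the mean r of pairs of different numbers was -0.02. The study calls its 3 replicates per time, and 2 for XEN, independent. Depth is unknown, as TPM keeps none. The members and gene lists were chosen with earlier results of these data known. The genes named are the members, the 3 largest changes at 168 h of each list, Pou5f1, and the closest genes by pattern (5 for Sox2 and Sox17, 3 for others). Alternatives covered scaling, filters, pseudocount, thresholds, the block and left-out libraries.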

Additional observations from a re-analysis of the deposited data

Results flagged for a closer look

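For the 6 members of the siRNA series, each arm of 6 libraries was screened for a library far from its neighbours, 12 sets of values in all, of which 2 were found where chance gives about 0.6. Both were siCTL replicate 4. Sox7 was at 7.53 there on the log2(TPM + 1) scale, against 5.70 to 5.97 in the other siCTL libraries. Sox17 was at 6.07, against 5.19 to 5.48.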

How the results depend on the processing

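Among results that answer a comparison, 282 alternatives left the value in place or nearly so, 25 moved it and 2 turned its direction. Some counts of calls that changed by 1 are among the 282. Among single members 1439 were in place, 63 gained a call, 6 lost one and 10 turned. Without the fold change minimum, of 9 members tested, Sox3 included, 7 were called at 16 h, 7 at 24 h and 7 from 24 to 48 h. In the same setting 4 were called from 48 to 72 h, 5 from 72 to 96 h, 6 from 96 to 168 h and 6 in XEN against 168 h. Of all 15057 genes tested, it called 1949 at 16 h, 4293 at 24 h, 5645 from 24 to 48 h and 4450 from 48 to 72 h. It called 2477 genes from 72 to 96 h, 6432 from 96 to 168 h and 7525 in XEN against 168 h. With a pseudocount of 0.1, 3 members were called from 48 to 72 h, 2 from 72 to 96 h and 4 in XEN against 168 h. Of all 15057 genes tested, 1053, 609 and 3215 were called in these comparisons. The Sox17 to Sox2 log ratio with that pseudocount was -10.43 at 0 h, 6.43 at 168 h and 11.2 in XEN. Fitting only the 2 groups left 0 calls from 72 to 96 h, of 7 members tested, beside 17 of 13044 genes. Rescaling to a common median gave SOXB1 3.044 and SOXF 392.3 TPM at 168 h and SOXF 392.6 TPM in XEN, and turned the Sox17 difference with siOct4 to 0.12. With replicate 3 left out of every ES group, an alternative chosen after seeing the data, 0 members were called from 48 to 72 h. From 72 to 96 h 2 were called. Of all 15155 genes tested, 850 and 894 were called in these steps. Sox7 then differed by -0.01 from 48 to 72 h.

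Leaving out single libraries gave 3 to 4 calls at 24 h against 0 h, 2 to 3 from 24 to 48 h and 7 to 8 in XEN against 0 h. The eighth of these was Sox3, whose difference reached -1.08. As Sox3 entered only through its 0 h mean, it is not read as a call. From 48 to 72 h it gave 0 to 1 calls (0 without 72 h replicate 3). From 72 to 96 h it gave 1 to 2 (2 without 72 h replicate 3 or 96 h replicate 2). In XEN against 168 h it gave 1 to 3 (1 without 168 h replicate 2 or XEN replicate 2, 3 without 168 h replicate 3). It moved the 24 h log ratio between -0.52 and 0.14, the Sox17 difference from 72 to 96 h between -0.24 and 0.06, that with siOct4 between -0.13 and 0.1, and the Sox2 difference with siOct4 between -0.75 and -0.04. Blocking on the replicate number, 1 member (Sox7) was called with siOct4 and Sox17 differed by -0.01 between XEN and 168 h. In the induction series, where deviations of the same number correlated little, the block changed no count of member calls. Averaging consecutive siRNA libraries, also chosen after seeing the data and fitted without the block, left Sox7 at -0.79 with a limma BH-adjusted p of 0.581. In that fit 0 of 6261 genes were called (437 with an unadjusted p under 0.05). Leaving out replicates 5 and 6 of both arms turned Sox4 to -0.31. The cause of these shifts was not tested. TPM values keep no depth, so the precision of low members such as Sox3 and Sox18 cannot be stated.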
